A study of Homo sapiens with 12 samples.

Results

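The receptors NOTCH1, NOTCH2 and NOTCH3, the ligands JAG1, JAG2 and DLL1, the glycosyltransferase LFNG, the DNA-binding factor RBPJ and the target genes HES1 and HEY1 were followed in RNA-seq libraries of p53-deleted colon cancer cells. They were chosen by name as central genes of the Notch pathway, 10 of the 60617 genes in the tables. All 10 passed the filter on low counts, which left 15692 genes for the tests. HCT 116p53-/- is a human colorectal carcinoma line in which p53 was deleted, and uL3ΔHCT 116p53-/- is a subline derived from it. The study describes the subline as stably silenced for the ribosomal protein uL3, whereas the sample labels give a knockout (KO) of RPL3, the gene that encodes uL3. All groups therefore lacked p53. Each line was treated with vehicle or with 5 nM Actinomycin D (Act D) for 24 h, and each of the 4 groups had 3 libraries that the labels call biological replicates. At low dose Act D blocks transcription of ribosomal RNA genes by RNA polymerase I. Whether the subline grew from 1 clone, and what the vehicle was, is not given in the sources used here. The comparisons address which transcripts differ between the lines, with and without Act D, and which respond to Act D in each line.

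The libraries held between 10087925 and 21138886 estimated counts. Replicate 1 of the Act D-treated uL3Δ-labelled libraries stood apart from the other two, with a chi-square per degree of freedom of 124 and 71.5 over genes against 14.6 between those. No call among the 10 genes changed without it, and the difference between the Act D responses of JAG1, described below, was then -0.75 on the log2 scale (edgeR adjusted p = 0.00446). RPL3, the targeted gene (ENSG00000100316, chromosome 22, 39312882 to 39320389, minus strand, hg38), was at 1136 ± 15.4 CPM (counts scaled to the effective library total) in vehicle-treated HCT 116p53-/- cells and at 1240 ± 82.3 CPM in vehicle-treated uL3Δ-labelled libraries (SD, n = 3 each). Its log2 fold change between the lines was 0.13 with vehicle and 0.12 with Act D (edgeR adjusted p = 0.155 and 0.187), so the transcript was not lower where the label gives a knockout, and the samples are called below by their label. Of 12 colon epithelial markers, 6 reached 1 CPM in HCT 116p53-/- cells with vehicle (summed level 2477 to 2678 CPM) and 4 in uL3Δ-labelled libraries (1589 to 1782 CPM). Of those 6, the ones under that level in the latter were CDH1, the E-cadherin gene of epithelia in general, and CDX2, an intestinal transcription factor. The remaining markers of the 12 were under 1 CPM in both lines with vehicle. With Act D the epithelial sums were 2680 to 2810 CPM (7 of 12 markers) and 1734 to 1980 CPM (4 of 12). Of 12 mesenchymal markers, 6 reached 1 CPM in HCT 116p53-/- cells, with sums of 58.5 to 71.0 CPM with vehicle and 67.7 to 104 CPM with Act D. In uL3Δ-labelled libraries 9 of 12 did, with sums of 2626 to 2694 CPM and 2635 to 2956 CPM. No endothelial marker of 6 reached 1 CPM except PECAM1 in Act D-treated uL3Δ-labelled libraries, and CLDN5 was at 0 throughout. The epithelial and mesenchymal sums moved with the line in every comparison between lines given below, and their part in those differences was not tested. Single markers did not all follow the sums. With vehicle KRT19 was lower in uL3Δ-labelled libraries (log2 fold change -4.06) but KRT18 higher (0.47). VIM was higher (6.67) but COL1A1 lower (-0.88), and VIM alone averaged 2234 CPM of the mesenchymal sum there.

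Notch signalling passes between touching cells. A ligand of the Jagged or Delta family on one cell binds a Notch receptor on its neighbour, proteases of the ADAM family and then the gamma-secretase complex cut the receptor, and the freed intracellular domain enters the nucleus. There it joins RBPJ and a Mastermind coactivator and switches on genes such as HES1 and HEY1, which encode repressors of transcription. Fringe enzymes such as LFNG add sugars to the receptor and so tune which ligands it answers. In the intestine the pathway is known for keeping crypt cells undifferentiated and for steering progenitors towards the absorptive fate.

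HES1 is the textbook example of a promoter with paired RBPJ sites, and it was set beside JAG1 and NOTCH3. JAG1 was the gene of the 10 whose response to Act D differed between the lines, at an adjusted p under 0.05, in every fit of that difference. NOTCH3 was the receptor with the largest difference between the lines. The 250 bases before the start of each gene are given 5′ to 3′ on the strand of the gene, from RefSeq on GRCh38.p14, at chr3:194135898-194136147 (plus strand), chr20:10674000-10674249 (minus strand) and chr19:15200996-15201245 (minus strand). Capitals mark the RBPJ motif, TGGGAA or its reverse complement TTCCCA.
HES1: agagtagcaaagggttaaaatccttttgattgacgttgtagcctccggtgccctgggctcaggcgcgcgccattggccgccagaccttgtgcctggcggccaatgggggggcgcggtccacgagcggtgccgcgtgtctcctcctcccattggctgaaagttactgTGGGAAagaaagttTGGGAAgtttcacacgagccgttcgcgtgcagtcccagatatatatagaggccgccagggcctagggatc
JAG1: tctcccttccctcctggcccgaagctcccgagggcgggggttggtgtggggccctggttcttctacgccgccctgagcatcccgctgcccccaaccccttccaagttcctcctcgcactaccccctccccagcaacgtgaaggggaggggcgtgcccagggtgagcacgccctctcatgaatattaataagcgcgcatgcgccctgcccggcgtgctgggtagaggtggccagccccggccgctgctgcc
NOTCH3: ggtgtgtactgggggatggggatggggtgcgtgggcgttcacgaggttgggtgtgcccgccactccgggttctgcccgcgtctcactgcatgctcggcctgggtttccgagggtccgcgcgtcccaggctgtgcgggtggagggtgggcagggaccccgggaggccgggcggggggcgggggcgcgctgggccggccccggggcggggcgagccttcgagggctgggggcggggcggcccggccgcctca

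The HES1 window held 2 RBPJ motifs, 84 to 79 and 70 to 65 bases before the start, and the JAG1 and NOTCH3 windows held none. Both matches in HES1 read TGGGAA on the strand of the gene. Only exact matches were marked, so these 2 need not be the paired sites for which HES1 is known, which was not tested. Windows of 8 of the 10 genes (not DLL1 and HEY1) were read, 13 in all. An RBPJ motif lay in 3 of these windows, those of HES1, LFNG and RBPJ. Among 35116 promoters of the same length 20.8% held at least 1 and 2.90% at least 2. The N box CACNAG or its reverse complement CTNGTG, the site that HES proteins bind, occurred 3 times in the HES1 window and 1 time in the NOTCH3 window, and did not overlap an RBPJ motif in the HES1 window. At least 1 N box lay in 32.0% of all promoters and at least 2 in 6.32%.

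Relative to transcript length, the leading gene of the pathway differed between the lines. In HCT 116p53-/- cells with vehicle the highest level was that of JAG2, at 25.2 ± 4.09 CPM per kb of effective length (SD, n = 3). NOTCH2 and RBPJ followed at 17.2 and 16.8 CPM per kb with ranges that overlapped, and JAG1 and HES1, at 8.81 and 8.80 CPM per kb, overlapped as well. NOTCH1 stood at 6.92 CPM per kb, apart from its neighbours. NOTCH3 (4.22) and LFNG (3.41) overlapped, as did DLL1 (0.585) and HEY1 (0.296), all in CPM per kb. The uL3Δ-labelled libraries with vehicle had another order. JAG1 led at 66.1 ± 4.48 CPM per kb (SD, n = 3), followed by HES1 at 22.8 CPM per kb, and neither overlapped its neighbours. RBPJ, HEY1 and NOTCH2 came next at 16.4, 16.0 and 14.7 CPM per kb. RBPJ overlapped HEY1, and HEY1 overlapped NOTCH2. Below NOTCH2 were LFNG and JAG2 at 9.02 and 8.94 CPM per kb, with LFNG and JAG2 overlapping each other. LFNG lay apart from NOTCH2, whereas the range of JAG2 (6.37 to 11.15 CPM per kb) overlapped that of NOTCH2 (10.57 to 17.06 CPM per kb). The lowest were NOTCH1 at 3.52, NOTCH3 at 1.64 and DLL1 at 1.00 CPM per kb, which did not overlap each other. With Act D the top of each order was kept, JAG2 at 18.1 CPM per kb in HCT 116p53-/- cells, where its range now overlapped that of NOTCH2, and JAG1 at 49.8 CPM per kb in uL3Δ-labelled libraries. The effective length that RSEM estimated for a gene varied between libraries, for NOTCH1 from 5802 to 9412 bases, so levels per length are less exact than the CPM used below.

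**Figure D1:**
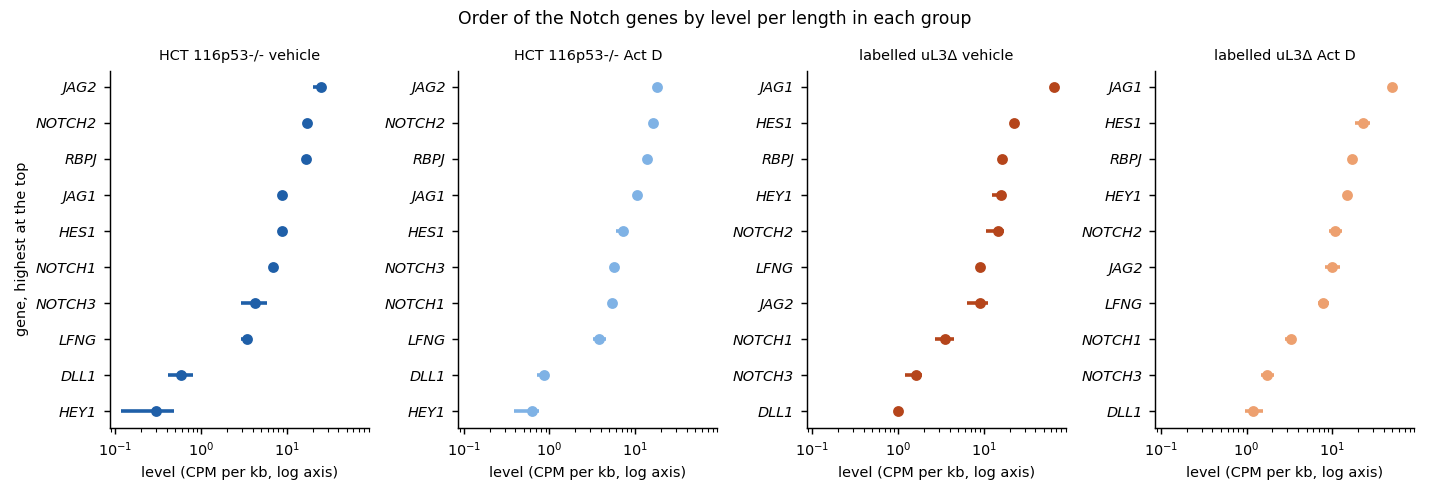
Mean level per length of the 10 Notch genes in each group (dots, CPM per kb of effective length on a log axis) with the range of 3 libraries (bars), ordered from the highest to the lowest. JAG2 tops the HCT 116p53-/- panels at 25.2 and 18.1 CPM per kb, and JAG1 tops the uL3Δ-labelled panels at 66.1 and 49.8 CPM per kb.

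Between the lines with vehicle, 9 of the 10 genes had an adjusted p under 0.05, 5 higher and 4 lower in uL3Δ-labelled libraries. Of all genes tested, 71.3% passed, 35.1% higher and 36.2% lower, so most genes, and not these 10 in particular, differed between the lines. The groups did not overlap for 9 of the 10 genes, against 72.5% of all genes. The median log2 fold change of the 10 genes was 0.35 and that of all genes -0.02. With Act D 9 of 10 again passed, 5 higher and 4 lower (all genes 70.4%, of which 35.1% higher and 35.3% lower), and 9 did not overlap (all genes 74.1%). The median was 0.35 against -0.02. Since libraries are bulk RNA, fewer cells that use a gene and less of its RNA per cell cannot be told apart. The receptors were all lower and the targets both higher in uL3Δ-labelled libraries, while the ligands went in both directions. The call of NOTCH2 with vehicle was lost when its near-identical copies were counted with it (-0.13, edgeR adjusted p = 0.162), which leaves 8 of the 10 genes.

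**Figure D2:**
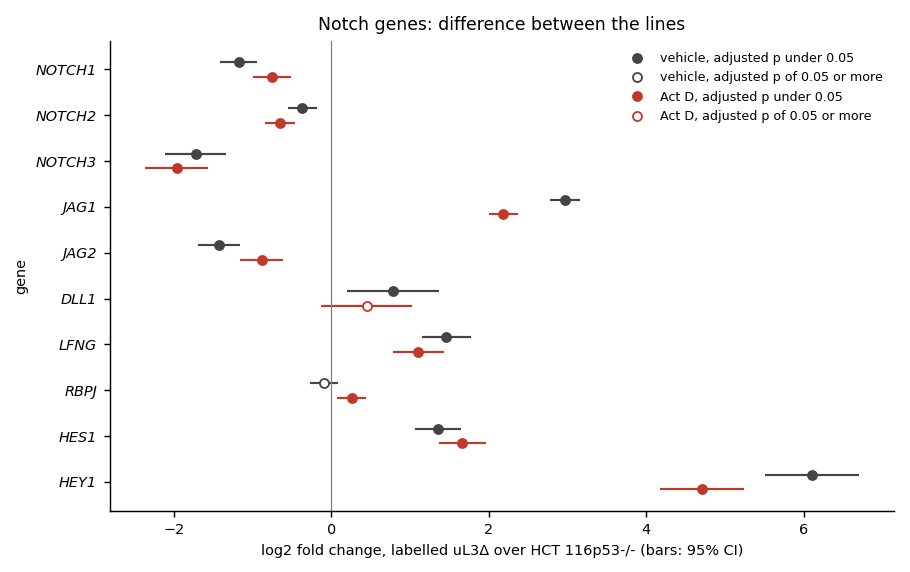
Log2 fold change of each Notch gene between uL3Δ-labelled libraries and HCT 116p53-/- cells, with vehicle (dark) and with Act D (red); bars are 95% confidence intervals of the fit and open circles have an adjusted p of 0.05 or more. HEY1 and JAG1 lie farthest to the right, at 6.10 and 2.97 with vehicle, and the receptors lie left of 0.

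NOTCH1 (ENSG00000148400, chromosome 9, 136494433 to 136546048, minus strand) is the receptor best known from the intestinal crypt. Its level was 56.2, 62.3 and 66.2 CPM in the HCT 116p53-/- libraries with vehicle and 31.7, 24.1 and 26.2 CPM in those labelled uL3Δ. The groups were well apart, the lowest of the first being above the highest of the second. NOTCH1 was 2.26-fold lower in uL3Δ-labelled libraries (log2 fold change -1.18, standard error 0.11, edgeR adjusted p = 2.83e-08). With Act D it was at 43.7, 49.6 and 46.7 CPM against 30.4, 26.9 and 25.01 CPM, a log2 fold change of -0.76 (edgeR adjusted p = 1.14e-05). From vehicle to Act D the level fell by 0.40 on the log2 scale in HCT 116p53-/- cells (edgeR adjusted p = 0.0142), and the change in uL3Δ-labelled libraries was 0.02 (adjusted p = 0.940). The fall in HCT 116p53-/- cells missed the threshold without vehicle replicate 3 (-0.35, adjusted p = 0.0647) or without Act D replicate 1 (-0.36, adjusted p = 0.0773).

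NOTCH2 (ENSG00000134250, chromosome 1, 119911553 to 120100779, minus strand) had the highest level per length of the 3 receptors in every group. With vehicle its level was 170.3, 168 and 176 CPM in HCT 116p53-/- cells and 144, 113 and 141 CPM in uL3Δ-labelled libraries. The groups did not overlap, and the difference was -0.37 on the log2 scale (edgeR adjusted p = 0.00108). Under Act D NOTCH2 stood at 161, 153 and 163 CPM against 98.2, 106 and 99.3 CPM (log2 fold change -0.66, edgeR adjusted p = 3.76e-06). NOTCH2 shares long stretches of near-identical sequence with NOTCH2NLA, NOTCH2NLB, NOTCH2NLC and NOTCH2NLR, human-specific partial copies, between which RSEM divides reads. The copies went the other way with vehicle. NOTCH2NLA averaged 8.32 ± 1.02 CPM in the HCT 116p53-/- libraries and 22.6 ± 2.12 CPM in uL3Δ-labelled libraries (SD, n = 3 each; log2 fold change 1.44), and NOTCH2NLB, NOTCH2NLC and NOTCH2NLR were higher by 3.34, 0.52 and 2.24 (edgeR adjusted p from 5.85e-07 to 0.00309 over the 4 copies). With NOTCH2 and its copies summed, the difference with vehicle was -0.13 (edgeR adjusted p = 0.162), so that the call was lost and 8 of the 10 genes remained, and that with Act D was -0.42 (adjusted p = 0.000195). RSEM's own posterior SD was at most 0.615% of the count for NOTCH2 between 3.97% and 14.1% for NOTCH2NLA, between 6.51% and 11.8% for NOTCH2NLC, between 5.88% and 49.2% for NOTCH2NLR and between 14.6% and 411% for NOTCH2NLB, so the counts of NOTCH2NLB and NOTCH2NLR are poorly determined.

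NOTCH3 (ENSG00000074181, chromosome 19, 15159038 to 15200995, minus strand), a receptor with an established role in smooth muscle and pericytes, differed most of the receptors. It was at 20.3, 25.2 and 32.1 CPM in HCT 116p53-/- cells with vehicle and at 9.06, 8.04 and 6.47 CPM in uL3Δ-labelled libraries. Even the highest of the latter was below the lowest of the former, and the level was 3.30-fold lower (log2 fold change -1.72, standard error 0.19, edgeR adjusted p = 1.69e-07). With Act D the values were 34.5, 36.5 and 32.5 CPM against 11.3, 8.44 and 6.25 CPM, a log2 fold change of -1.96 (edgeR adjusted p = 4.70e-08).

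JAG1 (ENSG00000101384, chromosome 20, 10637684 to 10673999, minus strand), a Jagged ligand, had the highest level per length of the 10 genes in uL3Δ-labelled libraries. With vehicle it was at 43.1, 45.8 and 43.4 CPM in HCT 116p53-/- cells and at 376, 333 and 326 CPM in uL3Δ-labelled libraries. The groups lay far apart, and the 3 libraries of each differed little. The level was 7.82-fold higher in uL3Δ-labelled libraries, a log2 fold change of 2.97 with a standard error of 0.09 (edgeR adjusted p = 6.47e-15). With Act D it was at 56.3, 60.4 and 53.4 CPM against 241, 259 and 274 CPM, a log2 fold change of 2.19 (edgeR adjusted p = 3.00e-13).

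JAG2 (ENSG00000184916, chromosome 14, 105140982 to 105168824, minus strand), the other Jagged ligand, was lower where JAG1 was higher. It was at 65.5, 80.2 and 88.3 CPM in HCT 116p53-/- cells with vehicle and at 31.8, 25.7 and 29.8 CPM in uL3Δ-labelled libraries, with no overlap (log2 fold change -1.43, standard error 0.13, edgeR adjusted p = 1.29e-08). Under Act D JAG2 stood at 52.5, 58.5 and 52.9 CPM against 34.1, 24.4 and 29.5 CPM (log2 fold change -0.89, edgeR adjusted p = 8.34e-06). DLL1 (ENSG00000198719, chromosome 6, 170282206 to 170306565, minus strand), a Delta ligand, was low in every library. Its level was 1.88, 2.96 and 1.51 CPM in HCT 116p53-/- cells with vehicle and 3.93, 3.65 and 3.30 CPM in uL3Δ-labelled libraries, a log2 fold change of 0.78 (edgeR adjusted p = 0.0176). That call was lost without HCT 116p53-/- vehicle replicate 1 (adjusted p = 0.0589) or replicate 3 (adjusted p = 0.0931). With Act D the groups overlapped, at 2.61, 3.44 and 3.21 CPM against 5.59, 3.31 and 3.47 CPM, and the difference of 0.45 had a 95% interval of -0.13 to 1.03 (edgeR adjusted p = 0.156). DLL1 overlaps FAM120B on the opposite strand, which had 5375 counts over the 12 libraries against 537 for DLL1, and the library kit is not stated to keep strand.

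LFNG (ENSG00000106003, chromosome 7, 2512529 to 2529177, plus strand), the Fringe enzyme that favours Delta over Jagged ligands at the receptor, was higher in uL3Δ-labelled libraries. It was at 4.98, 5.43 and 6.39 CPM in HCT 116p53-/- cells with vehicle against 14.9, 16.3 and 15.2 CPM (log2 fold change 1.46, edgeR adjusted p = 7.65e-08). Act D-treated libraries had 5.29, 7.43 and 5.54 CPM against 13.8, 12.1 and 13.3 CPM (1.10, edgeR adjusted p = 4.49e-06). The groups were apart under both treatments. RBPJ (ENSG00000168214, chromosome 4, 26163455 to 26435131, plus strand), the factor through which all Notch receptors act, had nearly the same level in both lines with vehicle, 76.6, 70.7 and 71.6 CPM against 67.3, 65.9 and 72.4 CPM. The groups overlapped, and the log2 fold change was -0.09 with a 95% interval of -0.27 to 0.09 (edgeR adjusted p = 0.347). With Act D RBPJ was at 58.0, 55.4 and 55.2 CPM in HCT 116p53-/- cells and at 60.3, 68.8 and 73.3 CPM in uL3Δ-labelled libraries, a log2 fold change of 0.26 (edgeR adjusted p = 0.0129). This difference missed the threshold when scaled by library size alone (0.01, adjusted p = 0.917), with no filter on low counts (adjusted p = 0.0903), and without Act D replicate 3 of HCT 116p53-/- cells or replicate 2 or 3 of uL3Δ-labelled libraries (adjusted p = 0.0822, 0.0722 and 0.161).

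HES1 (ENSG00000114315, chromosome 3, 194136148 to 194138732, plus strand), the repressor whose promoter with 2 RBPJ motifs is printed above, was at 11.97, 11.8 and 12.8 CPM in HCT 116p53-/- cells with vehicle and at 28.0, 33.1 and 32.5 CPM in uL3Δ-labelled libraries. The lowest of the latter was far above the highest of the former, a 2.56-fold difference (log2 fold change 1.36, standard error 0.14, edgeR adjusted p = 8.44e-08). With Act D it was at 10.2, 11.2 and 8.43 CPM against 37.8, 25.7 and 31.0 CPM (log2 fold change 1.67, edgeR adjusted p = 1.07e-08). HEY1 (ENSG00000164683), a repressor of the related HEY family, was the gene of the 10 with the largest difference between the lines. It was at 0.583, 0.481 and 0.241 CPM in HCT 116p53-/- cells with vehicle, 20 counts in all, and at 25.1, 34.8 and 30.2 CPM in uL3Δ-labelled libraries, 1458 counts in all. The log2 fold change was 6.10 with a standard error of 0.28 (edgeR adjusted p = 1.79e-12). The ratio of the summed counts per total was 60.6, with an exact 95% interval of 39.1 to 99.5 that covers counting error only. With Act D it was at 1.55, 0.878 and 0.642 CPM against 34.4, 23.1 and 25.2 CPM, and the log2 fold change was 4.71 (edgeR adjusted p = 1.55e-11).

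**Figure D3:**
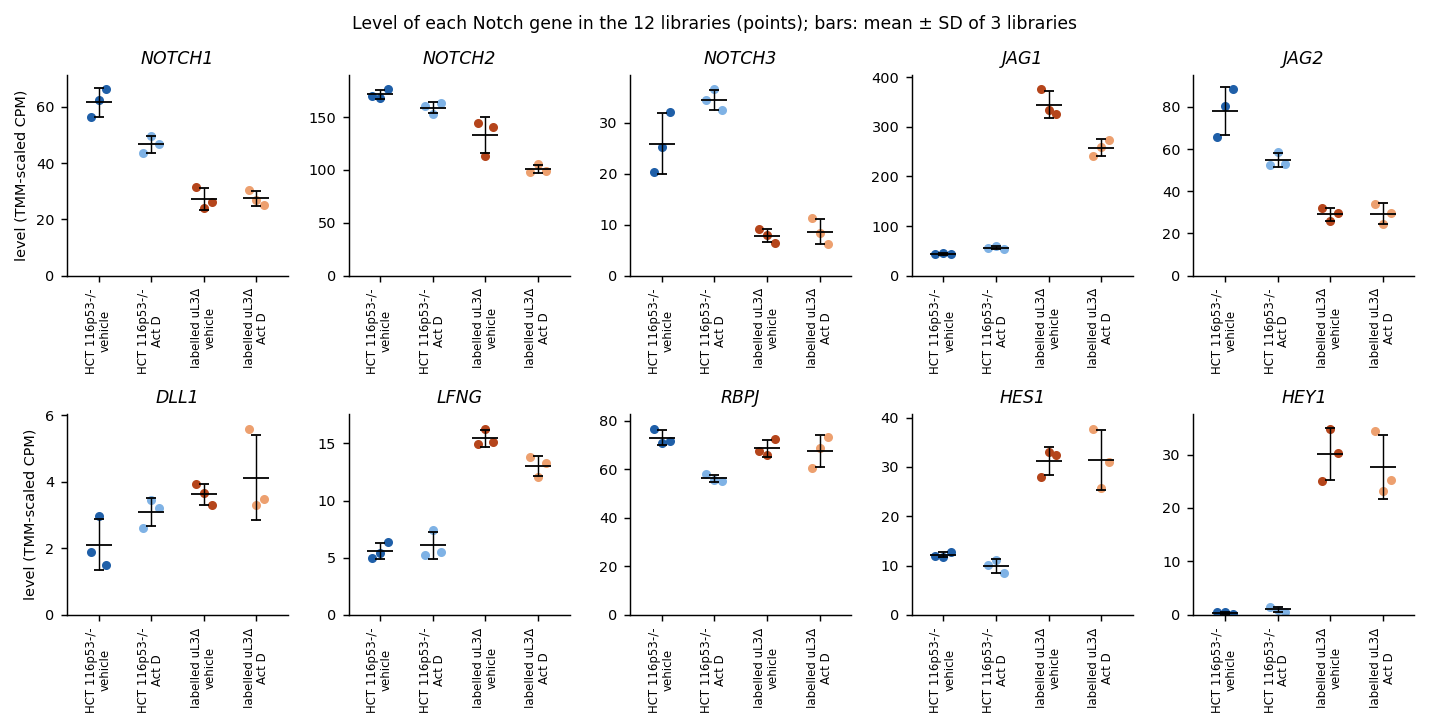
Level of each Notch gene in the 12 libraries (points, TMM-scaled CPM on linear axes from 0), by line and treatment, with the mean and SD of 3 libraries (bars). NOTCH1, NOTCH3 and JAG2 are lower and JAG1, LFNG, HES1 and HEY1 are higher in uL3Δ-labelled libraries under both treatments, and JAG1 is the gene that Act D raised in one line and lowered in the other.

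Among these genes Act D gave fewer calls than the line. In HCT 116p53-/- cells 4 of the 10 had an adjusted p under 0.05, against 18.7% of all genes tested. JAG1 rose (7.59% of all genes rose), and NOTCH1, JAG2 and RBPJ fell (11.1% of all genes fell). For 8 of the 10 genes the treated libraries lay apart from the untreated ones, against 38.2% of all genes, and the median log2 fold change was 0.00 against 0.02 for all genes. In uL3Δ-labelled libraries 2 of the 10 passed, against 11.9% of all genes. None rose (3.51% of all genes did) and NOTCH2 and JAG1 fell (8.40% of all genes did). The treatments lay apart for 3 of the 10 genes, NOTCH2, JAG1 and LFNG, against 27.6% of all genes, and the median was -0.00 against 0.03. The 2 lines were compared directly by the interaction, the response in uL3Δ-labelled libraries minus that in HCT 116p53-/- cells. It passed for 1 gene of the 10, JAG1, against 6.53% of all genes tested (3.30% higher and 3.23% lower). DESeq2 called 3 of the 10 in the interaction, JAG1, JAG2 and HEY1. The 6.53% is the share in edgeR, and that in DESeq2 is not given here, so the 3 genes cannot be set against it.

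JAG1 moved in opposite directions. From the values above, Act D raised it in HCT 116p53-/- cells from 44.1 ± 1.47 to 56.7 ± 3.53 CPM and lowered it in uL3Δ-labelled libraries from 345 ± 26.8 to 258 ± 16.6 CPM (SD, n = 3 each). Treated and untreated libraries did not overlap in either line. The log2 fold changes were 0.36 (standard error 0.09, edgeR adjusted p = 0.00686) and -0.42 (standard error 0.08, adjusted p = 0.00239). Their difference was -0.78 (standard error 0.12, edgeR adjusted p = 0.000959), and over 21 alternatives it lay between -0.87 and -0.72 (adjusted p between 1.50e-07 and 0.00469). The rise in HCT 116p53-/- cells missed the threshold when scaled by library size alone (0.26, adjusted p = 0.0695).

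The other genes that passed fell in one line. In HCT 116p53-/- cells JAG2 fell by 0.51 (edgeR adjusted p = 0.00638) and RBPJ by 0.38 (adjusted p = 0.00481) on the log2 scale. In uL3Δ-labelled libraries their changes were 0.03 (adjusted p = 0.930) and -0.03 (adjusted p = 0.892). The difference between the responses was 0.54 for JAG2 (edgeR adjusted p = 0.0830) and 0.35 for RBPJ (adjusted p = 0.0950), so neither was shown to respond differently by this test, although JAG2 passed in DESeq2 (0.53, adjusted p = 0.0484). For NOTCH1 it was 0.42 (edgeR adjusted p = 0.125). NOTCH2 fell by 0.39 in uL3Δ-labelled libraries (edgeR adjusted p = 0.00719) and by 0.41 with its copies summed (adjusted p = 0.00282), and was changed by -0.11 in HCT 116p53-/- cells (adjusted p = 0.437). The difference of -0.29 did not pass (edgeR adjusted p = 0.197).

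Of the genes that passed in neither line, NOTCH3 and HEY1 came nearest to the threshold, both in HCT 116p53-/- cells. NOTCH3 changed by 0.41 in HCT 116p53-/- cells (95% interval 0.06 to 0.77, edgeR adjusted p = 0.0957) and by 0.17 in uL3Δ-labelled libraries (-0.26 to 0.61, adjusted p = 0.651). The first passed with only the compared groups in the fit (edgeR adjusted p = 0.0434) and with no filter on low counts (adjusted p = 0.0231). It also passed with the GC content offset (edgeR adjusted p = 0.0296) and without vehicle replicate 3 (0.60, adjusted p = 0.0271). With each of the 6 libraries left out in turn it lay between 0.27 and 0.60 (edgeR adjusted p between 0.0271 and 0.333). HES1 changed by -0.29 (-0.60 to 0.02, edgeR adjusted p = 0.199) and 0.02 (-0.26 to 0.30, adjusted p = 0.947). LFNG changed by 0.12 (-0.22 to 0.45, edgeR adjusted p = 0.670) and -0.24 (-0.54 to 0.06, adjusted p = 0.310), and DLL1 by 0.55 (-0.04 to 1.15, adjusted p = 0.198) and 0.22 (-0.35 to 0.78, adjusted p = 0.673). All are log2 fold changes.

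HEY1 had the largest change with Act D in HCT 116p53-/- cells, 1.28 on the log2 scale (95% interval 0.32 to 2.24, edgeR adjusted p = 0.0601), and every treated library was above every untreated one. It rested on 20 and 46 counts over 3 libraries each. The same change passed in DESeq2 (adjusted p = 0.0138) and in edgeR's likelihood-ratio test (adjusted p = 0.0115). It also passed with no filter on low counts (edgeR adjusted p = 0.00962) and without Act D replicate 3 (1.51, edgeR adjusted p = 0.0339). With each of the 6 libraries left out in turn it lay between 0.83 and 1.55 (edgeR adjusted p between 0.0339 and 0.336). In uL3Δ-labelled libraries it changed by -0.12 (-0.48 to 0.24, edgeR adjusted p = 0.731). Genes that are high in uL3Δ-labelled libraries and almost without counts in untreated HCT 116p53-/- cells were examined beside it. Among 9 genes at 50 CPM or more in uL3Δ-labelled libraries and under 0.2% of that in HCT 116p53-/- cells with vehicle, the level in Act D-treated HCT 116p53-/- cells had a median of 0.541% (0.468% to 0.787%) of that in uL3Δ-labelled libraries with Act D. Their share with vehicle is fixed by this choice of genes. For HEY1 the share was 1.45% with vehicle and 3.71% with Act D. Reads carried over between libraries were not tested as a part of the change in HEY1.

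**Figure D4:**
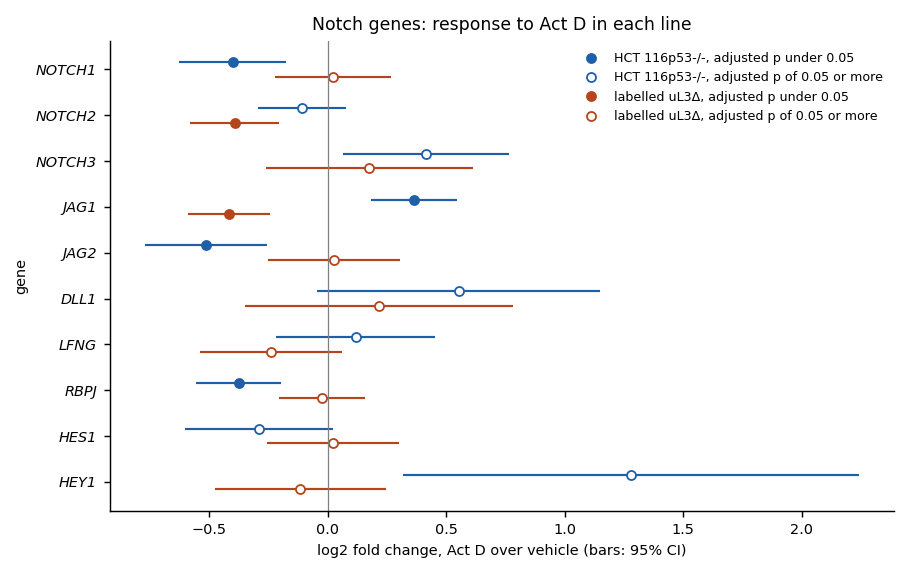
Log2 fold change of each Notch gene with Act D over vehicle in HCT 116p53-/- cells (blue) and in uL3Δ-labelled libraries (orange); bars are 95% confidence intervals of the fit and open circles have an adjusted p of 0.05 or more. JAG1 lies right of 0 at 0.36 in HCT 116p53-/- cells and left of it at -0.42 in uL3Δ-labelled libraries, and HEY1 has the widest interval.

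The rest of the pathway was described through 59 other genes, of which 54 passed the filter (DLL3, DLK1, DLK2, DTX1 and HES5 did not). Between the lines with vehicle 48 of the 54 passed the test, 27 higher and 21 lower in uL3Δ-labelled libraries, with a median log2 fold change of 0.31. With Act D 45 passed, 25 higher and 20 lower, with a median of 0.29. These shares stand beside the 71.3% and 70.4% of all genes, whose medians were both -0.02. NOTCH4, the remaining receptor, did not pass with either treatment.

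The counts per role given here and below stand beside 71.3% of all genes tested that passed with vehicle, 35.1% higher and 36.2% lower. The genes of receptor cleavage all passed with vehicle, 9 of 9, 7 of them higher. FURIN, which cuts the receptor on its way to the surface, averaged 42.6 ± 3.08 CPM in the HCT 116p53-/- libraries and 134 ± 8.70 CPM in uL3Δ-labelled libraries (SD, n = 3 each), higher by 1.65 on the log2 scale (edgeR adjusted p = 8.26e-11). The gamma-secretase subunits APH1B and PSENEN were higher by 1.61 (edgeR adjusted p = 1.16e-06) and 1.58 (adjusted p = 1.29e-09). The lower pair were ADAM10, the protease that cuts ligand-bound receptor (log2 fold change -1.23, edgeR adjusted p = 8.66e-10), and PSEN2, a catalytic subunit of gamma-secretase (-1.13, adjusted p = 4.52e-07). Of the genes that glycosylate receptors 4 of 5 passed. POFUT1, which adds the O-fucose that Fringe enzymes extend, was higher (1.13, edgeR adjusted p = 1.42e-09), and EOGT (-1.65), POGLUT1 (-1.13) and the Fringe gene RFNG (-0.35, adjusted p = 0.0472) were lower. Of the other ligands DLL4 was higher (1.32, edgeR adjusted p = 0.00266), and DNER, a non-canonical ligand, was lower, at 19.9 ± 1.46 CPM against 0.784 ± 0.161 CPM (SD, n = 3 each; -4.69, adjusted p = 2.75e-13).

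Of 12 genes for ubiquitination and trafficking 10 passed, 4 higher and 6 lower. DTX3, a Deltex family ubiquitin ligase, had 3 counts over the vehicle-treated HCT 116p53-/- libraries and 900 over the uL3Δ-labelled ones, a ratio of 249 per total with an exact 95% interval of 85.0 to 1211 for counting error only. DTX3L (0.89) and NUMB, an inhibitor that sends the receptor to degradation (0.84), were higher as well (edgeR adjusted p = 4.62e-06 and 3.35e-06). DTX4 had 317 counts over 3 HCT 116p53-/- libraries and 8 over 3 uL3Δ-labelled ones, a ratio of 0.0210 per total, uL3Δ-labelled over HCT 116p53-/- (exact 95% interval 0.00898 to 0.0418), and NEURL1B (-3.56, edgeR adjusted p = 4.11e-08) and NEURL1 (-2.26, adjusted p = 0.000437), ligases of the Neuralized family that act on ligands, were lower. The nuclear coactivators all passed, 6 of 6, with 4 higher. MAML3 (3.17, edgeR adjusted p = 2.77e-08), MAML2 (1.80, adjusted p = 1.04e-05) and SNW1 (0.61, adjusted p = 2.70e-06) were higher, while the Mastermind gene MAML1 (-0.52, edgeR adjusted p = 0.000301) and the acetyltransferase gene CREBBP (-0.86, adjusted p = 4.06e-06) were lower.

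Of 12 corepressor genes 11 passed, 7 higher and 4 lower. In the TLE family of Groucho-type corepressors, TLE1 (1.63, edgeR adjusted p = 5.82e-10) and TLE3 (1.51, adjusted p = 2.62e-10) were higher and TLE2 was lower (-2.70, adjusted p = 4.02e-10). TLE4 was higher too, on 4 counts in HCT 116p53-/- cells against 75, a ratio of 15.6 (exact 95% interval 5.84 to 58.7). CTBP2 (-1.05, edgeR adjusted p = 2.88e-09) and L3MBTL3, which binds RBPJ (-0.59, adjusted p = 0.000447), were lower. The other genes listed as targets, those of the HES and HEY families and NRARP, did not all share the direction of HES1 and HEY1. Of 7 tested 6 passed, 3 higher and 3 lower, and NRARP did not (-0.37, edgeR adjusted p = 0.116). Whether each is a target of Notch in these cells was not tested. HES6 was higher by 1.30 (edgeR adjusted p = 1.82e-06), HEY2 had 98 counts against 6 (ratio 13.6, exact 95% interval 6.02 to 37.9), and HES7 had 62 against 2 (ratio 25.8, exact 95% interval 6.84 to 217). HES2 was lower, at 22.1 ± 1.22 CPM in the HCT 116p53-/- libraries and 2.06 ± 0.211 CPM in uL3Δ-labelled libraries (SD, n = 3 each; -3.40, edgeR adjusted p = 8.15e-13), as were HEYL (-2.21, adjusted p = 7.34e-07) and HES4 (-1.43, adjusted p = 0.00135).

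**Figure D5:**
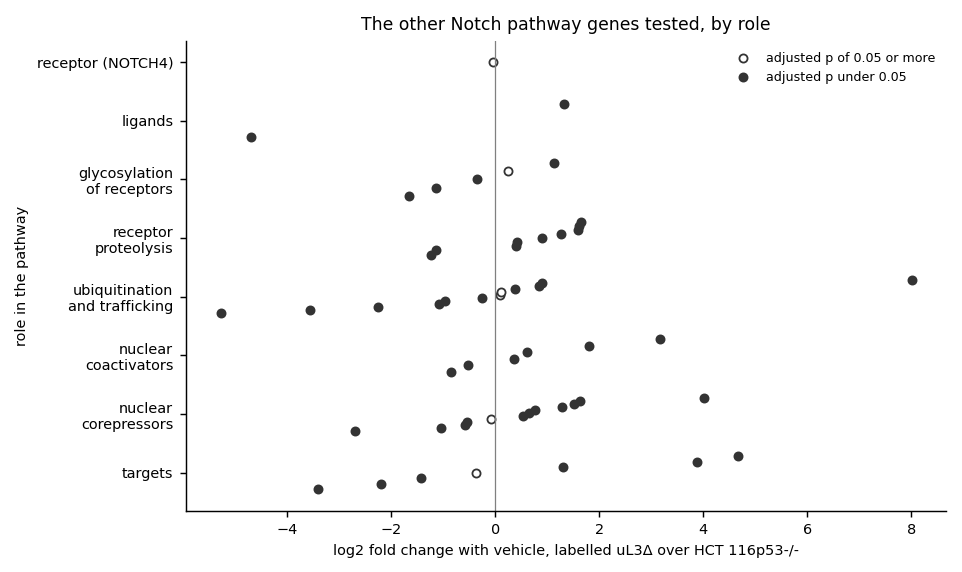
Log2 fold change with vehicle between uL3Δ-labelled libraries and HCT 116p53-/- cells of the 54 other Notch pathway genes tested, by role; each dot is a gene and open circles have an adjusted p of 0.05 or more. Every role with more than 1 gene has genes on both sides of 0, and the dots at the far right of ubiquitination (DTX3) and of targets (HES7) rest on 3 and 2 counts in HCT 116p53-/- cells.

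Act D changed 12 of the 54 other genes in each line, 4 up and 8 down in HCT 116p53-/- cells and 2 up and 10 down in uL3Δ-labelled libraries. Of all genes tested 18.7% and 11.9% passed. The count in HCT 116p53-/- cells was 7 without Act D replicate 1 and 6 without Act D replicate 2. In HCT 116p53-/- cells the corepressor gene CTBP2 fell from 108 ± 3.41 to 50.4 ± 3.68 CPM (SD, n = 3 each), by 1.09 on the log2 scale (edgeR adjusted p = 1.46e-07). L3MBTL3 fell by 0.62 (edgeR adjusted p = 0.00210) and ITCH, a ubiquitin ligase that acts on the receptor, by 0.55 (adjusted p = 0.000192). HES2 rose by 0.96 (edgeR adjusted p = 1.17e-05), DLL4 by 1.32 (adjusted p = 0.0146) and FURIN by 0.33 (adjusted p = 0.0315). In uL3Δ-labelled libraries CREBBP fell by 0.95 (edgeR adjusted p = 9.78e-05), ITCH by 0.76 (adjusted p = 2.30e-05) and TLE1 by 0.56 (adjusted p = 0.00259), and HES2 rose by 0.84 (adjusted p = 0.00691). NRARP, a target that restrains Notch signalling, rose there by 0.78 (edgeR adjusted p = 0.0195). The response differed between the lines for 6 of the 54 genes, against 6.53% of all genes, and 3 genes were called without HCT 116p53-/- Act D replicate 1 or vehicle replicate 3. The response was higher in uL3Δ-labelled libraries for CTBP2 (0.80, edgeR adjusted p = 0.000887), L3MBTL3 (0.74, adjusted p = 0.0217) and ADAM10 (0.50, adjusted p = 0.0245). It was lower for FBXW7, the ligase that degrades the intracellular domain (-0.65, edgeR adjusted p = 0.00853), for the acetyltransferase gene EP300 (-0.48, adjusted p = 0.0441) and for DTX3 (adjusted p = 0.0249), which had 3 counts in vehicle-treated HCT 116p53-/- cells.

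Over the 12 libraries the genes whose log2 CPM followed JAG1 most closely, of 10840 compared, were SH2B3 (Pearson r = 0.997), IL6R (0.997) and LINC03082 (0.997), and for HES1 they were METTL26 (0.992), NLK (0.990) and PTP4A3 (0.990). These correlations are a description, since the 12 libraries fall into lines and treatments: 2288 genes had r over 0.9 with JAG1 and 2079 with HES1.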

How the data were processed

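RNA-seq was analysed for 12 libraries in 4 groups of 3, taken from the sample labels. Per the labels and the study's methods, the authors used a TruSeq RNA kit and paired-end sequencing, trimmed reads, removed ribosomal and PhiX reads and ran RSEM 1.2.25 against Ensembl genes (hg38). The authors deposited RSEM estimated counts, which divide a read between the genes it fits, per gene for 11 libraries and per transcript for 1. That library's counts were summed per gene, and its deposited TPM served only as weights for gene length. Other normalized columns were not used. Names and coordinates came from GENCODE v44.

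Counts were rounded, filtered by filterByExpr (15692 of 33990 genes kept), scaled by TMM (factors 0.847 to 1.148) and fitted in one model of all 12 libraries (edgeR 4.0.16, R 4.3.3, common dispersion 0.0117). Every adjusted p is from the edgeR quasi-likelihood test, adjusted by Benjamini-Hochberg over all genes tested, unless another tool is named, at a threshold of 0.05. CPM are TMM-scaled. The code was tested on simulated data for the comparison of the lines with vehicle only. Far fewer genes were changed there than were called here, so that test does not cover scaling where most genes differ. The 22 alternatives were DESeq2 1.42.0, a likelihood-ratio test, other scalings and filters, a replicate block, only the compared groups, each library left out and, added after seeing the data, a GC content offset and NOTCH2 summed with its copies. Calls were also counted with a fold threshold. The members and lists were chosen with earlier results of these data known. Genes named besides the 10 and RPL3 were, per role and direction between lines and per direction for Act D, up to 3 with the largest fold change among those called at a group mean of 1 CPM or more, the copies of NOTCH2, and the 3 genes closest to JAG1 and to HES1 by correlation. The 6 genes whose Act D response differed were named after their values were seen.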

Additional observations from a re-analysis of the deposited data

Results flagged for a closer look

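The response of JAG1 to Act D differed between the lines by a test of the difference itself. On the log2 scale it was 0.36 in HCT 116p53-/- cells and -0.42 in uL3Δ-labelled libraries, a difference of -0.781 (edgeR's quasi-likelihood interaction term, adjusted p = 0.000959), with every treated library above every untreated one in the first line and below in the second.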

How the results depend on the processing

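Of 850 alternative values of the 50 log2 fold changes of the 10 genes, 795 kept their direction and side of the threshold, 12 lost and 20 gained the call, and 23 changed sign. The sign changes were all of values not called: with Act D in uL3Δ-labelled libraries, NOTCH1, JAG2 and HES1 went to -0.0834, -0.0728 and -0.0734 when scaled by library size alone, to -0.0234, -0.0161 and -0.0242 with no filter, and to -0.0121, -0.0056 and -0.0067 with only the compared groups, and RBPJ to 0.0369 under upper-quartile scaling. With 1 library left out, the ranges there were -0.0768 to 0.14 for NOTCH1, -0.10 to 0.32 for NOTCH3, -0.11 to 0.12 for JAG2, -0.10 to 0.33 for DLL1, -0.12 to 0.0434 for RBPJ, -0.15 to 0.12 for HES1 and -0.33 to 0.0063 for HEY1, and -0.0537 to 0.23 for LFNG in HCT 116p53-/- cells. Library size alone moved the median of all genes to -0.26 in both comparisons between lines and to -0.08 and -0.07 with Act D. Scaled so, DLL1 lost its call between the lines with vehicle (0.55, adjusted p = 0.101) and RBPJ gained one (-0.33, adjusted p = 0.00233), each having moved with all genes. The interaction was called for 3 of the 10 genes by DESeq2, 2 by the likelihood-ratio test, 3 with no filter and 3 with the GC offset, which called 1580 genes in all against 1025. For DESeq2, the likelihood-ratio test and no filter the totals over all genes are not given here, so these counts stand without a share beside them. The genes added were JAG2 and HEY1 (DESeq2, no filter), HEY1 (likelihood-ratio test), and NOTCH1 and JAG2 (GC offset), and the cause was not tested. Leaving out 1 library also gave a call for NOTCH1 (uL3Δ-labelled vehicle replicate 1: 0.54, adjusted p = 0.0357), NOTCH2 (replicate 2 of that group: -0.39, adjusted p = 0.0460) and JAG2 (HCT 116p53-/- vehicle replicate 1: 0.65, adjusted p = 0.0353, or uL3Δ-labelled Act D replicate 2: 0.62, adjusted p = 0.0445).

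When an absolute log2 change of 1 or more was required in addition, 5912, 5824, 454, 202 and 284 genes remained called between the lines with vehicle, between the lines with Act D, with Act D in HCT 116p53-/- cells, with Act D in uL3Δ-labelled libraries and in the interaction. Of the 10 genes 5 did between the lines with Act D and 0, 0 and 0 in the last 3 comparisons, and of the other pathway genes 30, 29, 3, 0 and 1. With 1 library left out, the calls in the same order were 10552 to 11107, 10423 to 10673, 1841 to 2332, 1314 to 1718 and 627 to 1046 genes, 8 to 9, 8 to 9, 3 to 5, 2 to 2 and 1 to 2 of the 10, and 46 to 47, 43 to 46, 6 to 12, 8 to 12 and 3 to 7 of the others. Act D replicate 1 of HCT 116p53-/- cells gave the lowest count of genes in that line (1841; 642 in the interaction), and uL3Δ-labelled Act D replicate 1 gave 627 in the interaction. For the other pathway genes, HCT 116p53-/- Act D replicates 1 and 2 gave 7 and 6 with Act D, and Act D replicate 1 or vehicle replicate 3 of that line gave 3 in the interaction. Ordered by CPM without length, NOTCH2 ranked 1 and JAG2 2 in HCT 116p53-/- cells with vehicle, and 6 of the 10 genes changed rank.

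Replicate numbers did not pair the libraries: the correlations of same-numbered libraries' deviations lay between -0.161 and 0.12. Both this check and the block use the numbers in the titles, since for Act D-treated uL3Δ-labelled libraries the description field gives 4 to 6 and not 1 to 3. With the replicate number as a block 2469 and 1502 genes were called with Act D and 722 in the interaction, none of the 50 calls of the 10 genes changed, and the interaction of JAG1 was -0.78 (adjusted p = 0.00363). Depth limits HEY1 in HCT 116p53-/- cells and DLL1 in all groups.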
